A study of Mus musculus with 40 samples.

Results

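The genes of oxidative phosphorylation were examined in the livers of mice gavaged with TCDD. Members were chosen by symbol as the complex I subunits and assembly factors (Nduf), succinate dehydrogenase (Sdha to Sdhd), the complex III genes named Uqcr, cytochrome c oxidase (Cox4 to Cox8), ATP synthase (Atp5) and the mRNAs encoded by mitochondrial DNA. Of 120 matching symbols, 13 were left out as pseudogenes, and 8 genes with fewer than 400 counts summed over all libraries were left out as well. These 8 were the tissue isoforms Cox4i2, Cox6a2, Cox6b2, Cox7b2, Cox8b and Cox8c, a second identifier of Atp5o, and mt-Atp8 with 296 counts. Among the 13, Ndufb1-ps (21166 counts) was left out by its symbol alone. It is annotated as a bidirectional promoter lncRNA and was listed as a complex I accessory subunit. The remaining 99 of 55359 genes, 87 encoded in the nucleus and 12 in mitochondrial DNA, all passed the filter on low counts. Complex I contributed 43 members, complex II 4, complex III 9, complex IV 16 and complex V 17, to which 8 complex I assembly factors and the genes Ndufa4l2 and Atp5s were added.

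Hepatic RNA was sequenced from male C57BL/6 mice, 30 days old at the start of the study and 58 days old at its end. Each of 8 groups of 5 mice received sesame oil vehicle, or TCDD in sesame oil at 30, 10, 3, 1, 0.3, 0.1 or 0.03 μg/kg, by gavage every 4 days for 28 days with 7 administrations. TCDD is a persistent dioxin and a ligand of the transcription factor AhR (aryl hydrocarbon receptor). Libraries held 15.5 M to 21.0 M gene counts (median 17.5 M), of which 4.74% to 6.95% fell on mitochondrial mRNAs and 1.10% to 1.86% on the nuclear members.

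Oxidative phosphorylation is the process by which mitochondria turn the energy of nutrients into ATP. Complex I takes electrons from NADH and complex II from succinate, complex III passes them to cytochrome c, and complex IV delivers them to oxygen. The proton gradient built by complexes I, III and IV drives ATP synthase (complex V). Complex II is encoded entirely in the nucleus, whereas the other complexes combine nuclear subunits with subunits encoded in mitochondrial DNA, which is transcribed into long precursors that are cut at tRNAs. Hepatocytes are rich in mitochondria, and the markers mt-Nd1, mt-Co1 and Cox5a were abundant in vehicle livers at 6834, 17086 and 40.7 CPM per kilobase of merged annotated exons (CPM being read counts relative to the scaled size of the library).

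Mitochondrial mRNAs share sequence with copies inserted in the nuclear genome, and only reads with a single placement were counted. All 150-base windows of each transcript were compared with the other annotated transcripts. More than 90% of the windows were shared for mt-Co3 (99.8%), mt-Co2 (99.4%), mt-Atp6 (99.4%), mt-Nd4l (98.0%) and mt-Nd3 (97.0%). The sequences that set this limit are shown for bases 61 to 150 of mt-Co2 and mt-Atp6, taken from the GENCODE M21 transcripts. Each stretch is the same, letter for letter, in the nuclear copies Gm28661 and Gm10925.
mt-Co2: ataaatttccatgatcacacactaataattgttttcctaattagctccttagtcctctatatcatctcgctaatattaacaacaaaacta
mt-Atp6: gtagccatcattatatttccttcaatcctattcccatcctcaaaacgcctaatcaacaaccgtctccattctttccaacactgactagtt
Over the 681 bases compared between mt-Co2 and Gm28661, and over the 678 bases compared between mt-Atp6 and Gm10925, no base differed. The values of mt-Co2 in vehicle mice were 12.24, 6.469, 10.49, 10.35 and 13.82 CPM, against a mean of 26400 CPM for mt-Co1 of the same complex. The levels of these 5 mRNAs are therefore those of the few reads placed at a single site. The other 7 mitochondrial members (mt-Nd1, mt-Nd2, mt-Nd4, mt-Nd5, mt-Nd6, mt-Co1 and mt-Cytb) are given separately as the mRNAs under the 90% limit. Of these, mt-Nd4 shared 59.2% of its windows, and so most of its sequence, and mt-Co1 shared 23.6%. The libraries kept no strand, so reads of mt-Nd6 and of the transcript opposite to it cannot be told apart. Among nuclear members, Ndufaf2 (60.7%), Atp5g2 (33.1%), Ndufa13 (20.5%), Atp5o (17.2%) and Ndufb6 (16.4%) had the largest shares of shared windows, and their values are less certain for that reason.

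Promoters were available from RefSeq for 71 of the 87 nuclear members, in 76 windows of 250 bases before the start site. The windows of 4 members whose values are described further on are shown, Ndufb6, Ndufa5 and Sdha for their fall and Cox6a1 for its rise. Ndufa2 and Uqcrq, which fell further at 30 μg/kg, are not among them. Capitals mark matches to the binding motif of nuclear respiratory factor 1 (NRF1), searched as GCGC, any base and TGCGC, which is known for its sites in promoters of respiratory genes.
Ndufb6 (GRCm38.p6 chr4:40279422-40279671, minus strand): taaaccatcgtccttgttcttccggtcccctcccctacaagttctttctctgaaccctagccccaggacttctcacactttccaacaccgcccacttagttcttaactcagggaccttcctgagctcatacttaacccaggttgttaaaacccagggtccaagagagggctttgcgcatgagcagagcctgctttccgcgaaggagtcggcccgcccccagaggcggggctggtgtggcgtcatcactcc
Ndufa5 (GRCm38.p6 chr6:24527691-24527940, minus strand): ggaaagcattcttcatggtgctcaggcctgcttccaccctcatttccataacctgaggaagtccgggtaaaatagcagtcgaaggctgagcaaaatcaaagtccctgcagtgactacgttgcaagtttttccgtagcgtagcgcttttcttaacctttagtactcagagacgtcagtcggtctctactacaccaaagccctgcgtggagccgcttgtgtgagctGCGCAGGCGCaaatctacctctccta
Sdha (GRCm38.p6 chr13:74350241-74350490, minus strand): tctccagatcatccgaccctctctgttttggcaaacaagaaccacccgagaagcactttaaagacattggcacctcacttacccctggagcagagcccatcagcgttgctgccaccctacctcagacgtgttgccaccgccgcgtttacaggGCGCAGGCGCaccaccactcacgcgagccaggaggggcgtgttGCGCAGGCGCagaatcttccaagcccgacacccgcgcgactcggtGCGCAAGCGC
Cox6a1 (GRCm38.p6 chr5:115348959-115349208, minus strand): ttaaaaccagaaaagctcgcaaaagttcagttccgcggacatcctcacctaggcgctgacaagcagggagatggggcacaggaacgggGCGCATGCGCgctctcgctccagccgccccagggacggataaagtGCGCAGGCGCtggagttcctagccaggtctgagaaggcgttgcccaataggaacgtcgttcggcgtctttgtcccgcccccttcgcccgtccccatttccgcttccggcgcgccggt
The printed Sdha window held 3 such matches, that of Cox6a1 2, that of Ndufa5 1 and that of Ndufb6 0. Searched on both strands, the motif stood in 15 of the 76 windows (19.7%) against 3.74% of 32851 promoter windows of all genes. It stood in 8 of 34 windows (23.5%) of the members lower at 30 μg/kg by adjusted p and in 6 of 38 (15.8%) of those that did not pass. GCGTG, the core of AhR response elements, stood in 33 of the 76 windows (43.4%) and in 28.2% of all windows, with 17 of 34 (50%) among the members that fell and 14 of 38 (36.8%) among those that did not pass. Of the 4 windows of nuclear members that rose, 2 (50%) held GCGTG and 1 (25%) the NRF1 motif. These 4 windows are too few for a comparison, and differences between the groups of windows were not tested. TNAAGGTCA, the extended half-site of estrogen-related receptor α, stood in 2 windows (2.63%, against 1.14% of all). The member windows were richer in G and C (56.8% against 53.2%), and the shares were not matched for this. A match is a string of letters and was not shown to be a bound site.

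The first question was how many of these genes responded at each dose. At 30 μg/kg, 40 of the 99 members were lower than in vehicle and 6 were higher by an adjusted p under 0.05 from edgeR's quasi-likelihood test, while 53 did not pass. Of all 15373 genes tested, 26.6% were lower and 28.8% were higher by the same rule. With a fold change of at least 1.5 as well, 14 members were lower and 3 were higher, against 18.9% and 23.2% of all genes, and the 3 became 1 without TCDD 30 μg/kg replicate 3. The share of lower members thus lay above the background by adjusted p alone and below it with the fold threshold, and neither difference was tested. Their median log2 fold change was −0.27 against 0.03 for all genes, and 77 of the 99 lay below 0 with the trimmed mean scaling of edgeR. When libraries were scaled to their total counts alone, the direction of the family turned, with 43 members higher and 7 lower, against 53.1% and 13.1% of all genes. That scaling raised the median of all genes at 30 μg/kg by itself, to a log2 fold change of 0.52. Changes are given relative to the bulk of genes throughout.

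More members passed at the higher doses. At the 3 lowest doses edgeR called 0 members by either rule, and 0, 9 and 7 members were lower at an unadjusted p under 0.05 at 0.03, 0.1 and 0.3 μg/kg, with 0 higher. Of all genes 2.56%, 4.33% and 7.33% passed that unadjusted threshold in either direction, so the 7 of 99 members at 0.3 μg/kg were near the background. By adjusted p the background there was 0.026% higher at 0.03 μg/kg, 0.013% lower and 0.0911% higher at 0.1 μg/kg, and 0.0781% lower and 0.442% higher at 0.3 μg/kg. With the fold threshold it was 0.0195% higher at 0.03 μg/kg, 0.013% lower and 0.0846% higher at 0.1 μg/kg, and 0.065% lower and 0.403% higher at 0.3 μg/kg. At 1 μg/kg 3 members were lower by adjusted p (1.13% of all genes), namely Ndufv2, Ndufb6 and Ndufa5 of complex I, and 0 were higher (2.63% of all genes), also at an unadjusted p under 0.05. At 3 μg/kg 11 were lower (3.9% of all genes) and 1 was higher (6.36% of all genes). At 10 μg/kg 25 were lower (14.1% of all genes) and 1, Cox6a1, was higher (17.7% of all genes). With the fold threshold the counts of lower members were 1 at 1 μg/kg (0.637% of all genes), 3 at 3 μg/kg (2.22%) and 7 at 10 μg/kg (8.13%). Higher members by both rules numbered 0 at 1 μg/kg (2.15% of all genes), 0 at 3 μg/kg (4.53%) and 1 at 10 μg/kg (13.6%). The count of 25 was 15 without TCDD 10 μg/kg replicate 3 and 16 without TCDD 10 μg/kg replicate 2 or 4 or vehicle replicate 3, and the count of 7 was 12 without TCDD 10 μg/kg replicate 1. Scaling to total counts alone gave 9 lower and 13 higher by adjusted p at 10 μg/kg (7.47% and 29.6% of all genes), and the numbered series of the sample titles and the order within title triples as covariates gave 49 lower (17.1% of all genes). Across all doses, a slope on the dose steps passed in 52 members downward and in 5 upward, against 26.1% and 31.5% of all genes. This direction also turned with total-count scaling, which gave 11 downward and 38 upward (12.3% and 55.6% of all genes). With edgeR's scaling the 5 that rose with dose were Cox6a1, Ndufv1, Ndufaf1, Ndufaf7 and Atp5s, of which 3 passed without TCDD 0.1 μg/kg replicate 3 or TCDD 30 μg/kg replicate 4.

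**Figure D1:**
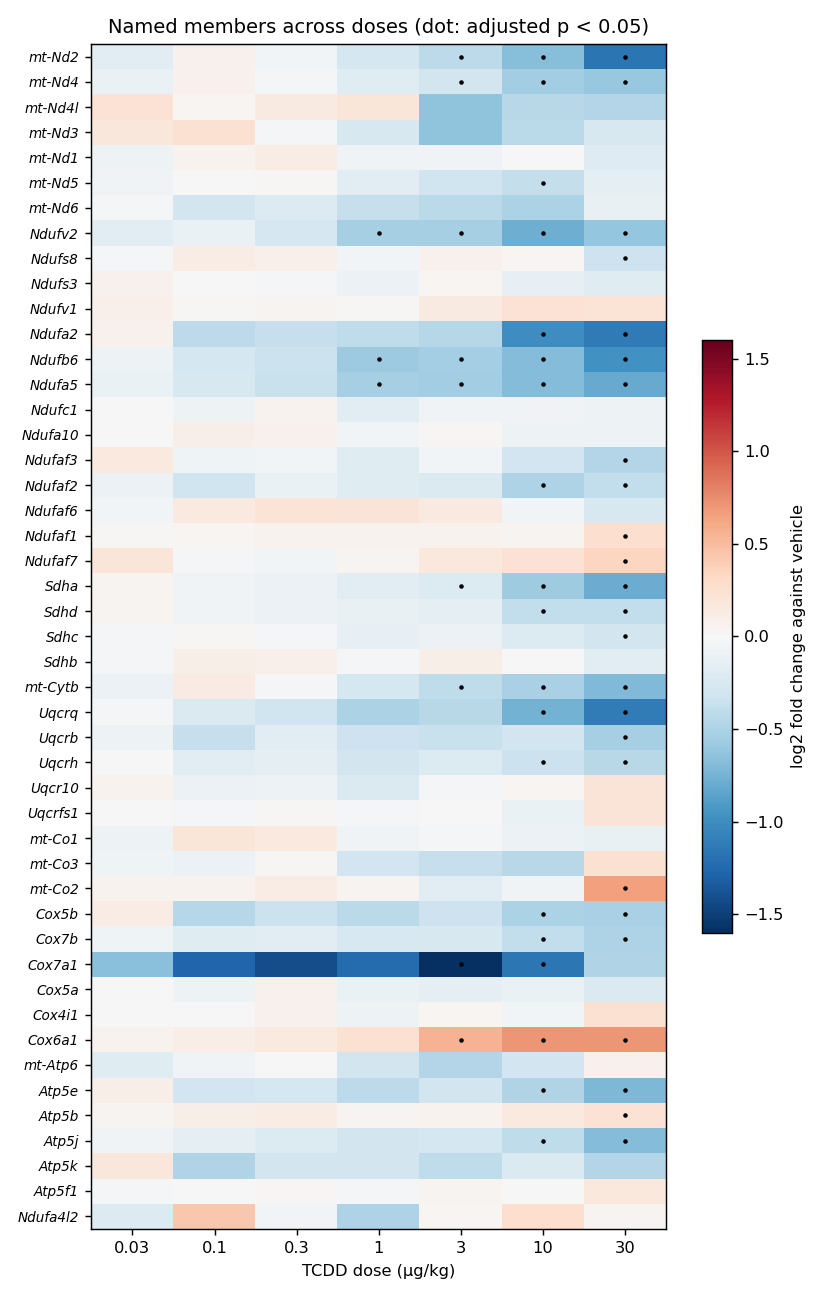
Log2 fold change from vehicle of the named members (rows) at 7 doses of TCDD in μg/kg (columns), as a colour scale, with a dot where edgeR's adjusted p was under 0.05. Dots begin at 1 μg/kg with Ndufv2, Ndufb6 and Ndufa5 and are most frequent at 10 and 30 μg/kg.

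Livers differ in their cells as well as in their transcripts, and markers of other cell types moved with dose. Summed levels of the 8 hepatocyte markers were 121815 to 148139 CPM in vehicle mice and 37548 to 82227 CPM at 30 μg/kg, where 6 of the 8 fell by both rules. Macrophage markers rose in 8 of 8 (157 to 217 CPM in vehicle, 596 to 1827 CPM at 30 μg/kg), stellate and fibroblast markers in 5 of 6 (65.7 to 178 and 401 to 995 CPM) and neutrophil markers in 4 of 4 (1.61 to 3.98 and 15.2 to 49.8 CPM). T and B cell markers rose in 6 of 7 (3.86 to 5.39 and 6.91 to 13.6 CPM), endothelial markers in 3 of 5 (132 to 175 and 234 to 314 CPM), and cholangiocyte markers in 4 of 5, with 1 lower (37.2 to 48.4 and 67.5 to 333 CPM). The 5 muscle and adipose markers, of which 1 was tested, summed to 0 to 272 CPM in vehicle mice and to 20.0 to 75.0 CPM at 30 μg/kg. The upper end in vehicle belongs to replicate 2 alone, with Ckm, Myh1 and Acta1 at 34.8, 90.4 and 146 CPM. In the other 4 vehicle mice these 3 genes stood at no more than 0.0498, 0 and 0.0647 CPM. In whole liver, fewer cells of a type and less RNA per cell cannot be told apart, and the part of these shifts in the results was not tested. The 2 AhR target genes used to check the labels summed to 901 to 1234 CPM in vehicle mice and to 24923 to 33539 CPM at 30 μg/kg.

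Averaged over genes within each mouse, the nuclear members stood at 6.37 ± 0.06 log2 CPM in vehicle (SD, n = 5) and at 6.09 ± 0.13 at 30 μg/kg (SD, n = 5), a difference of −0.28. Vehicle mice ranged from 6.32 to 6.46 and mice at 30 μg/kg from 5.93 to 6.24, without overlap. The 7 mitochondrial mRNAs with mostly their own sequence went from 12.55 ± 0.15 (12.30 to 12.72) to 12.11 ± 0.02 (12.07 to 12.13), also without overlap. Their difference from vehicle was −0.08, 0.03 and 0.003 at 0.03, 0.1 and 0.3 μg/kg. It was −0.20 at 1 μg/kg, −0.28 at 3 μg/kg, −0.39 at 10 μg/kg and −0.44 at 30 μg/kg. The nuclear members moved less evenly, by −0.01, −0.13, −0.10, −0.21, −0.16, −0.23 and −0.28 from the lowest dose to the highest. Over all 12 mitochondrial members the difference at 30 μg/kg was −0.22. The nuclear minus mitochondrial difference, which does not depend on library scaling, moved by −0.06 from vehicle to 30 μg/kg over all 12 and by 0.16 over the 7, so its sign depended on the 5 mRNAs with shared sequence, and over all 12 it was positive without vehicle replicate 2 (0.0306), vehicle replicate 3 (0.0081) or TCDD 30 μg/kg replicate 3 (0.0021). As shares of gene counts, the nuclear members took 1.27% ± 0.04 in vehicle and 1.62% ± 0.15 at 30 μg/kg, and the mitochondrial mRNAs 5.75% ± 0.47 and 6.31% ± 0.62. The nuclear share was higher in all mice at 30 μg/kg (1.48% to 1.86%) than in all vehicle mice (1.23% to 1.34%), while the mean relative to other genes was lower.

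**Figure D2:**
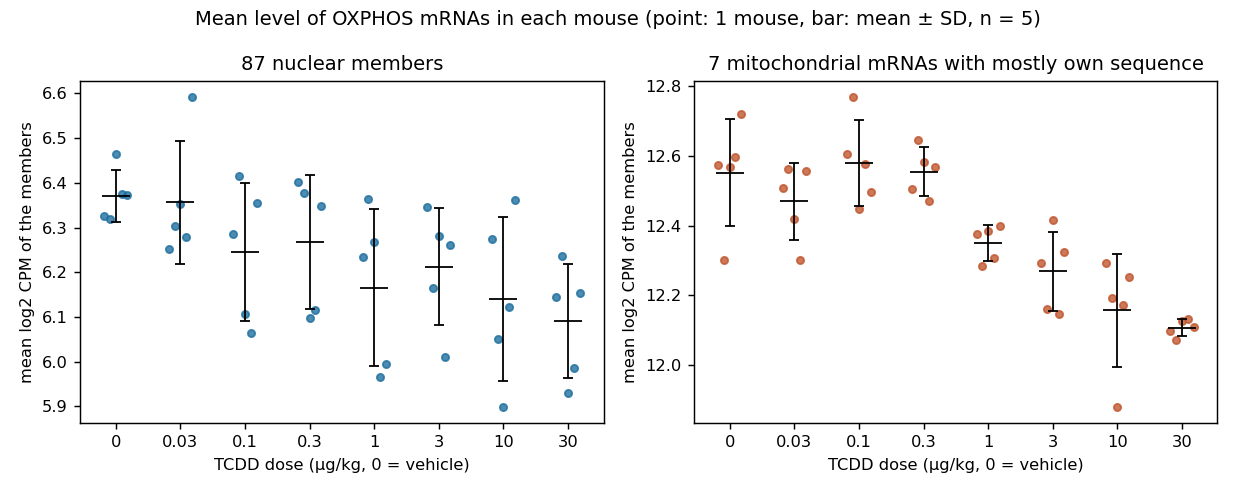
Mean log2 CPM per mouse at each dose in μg/kg for the 87 nuclear members (left) and the 7 mitochondrial mRNAs under the 90% limit on shared windows (right). The panel title calls the latter mostly own sequence, which does not hold for mt-Nd4 (59.2% shared). Each point is a mouse and bars give the mean ± SD of 5 mice. In both panels all mice at 30 μg/kg lie below all vehicle mice.

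Mitochondrially encoded subunits did not move by equal amounts, although they are cut from shared precursors. At 30 μg/kg 3 of the 12 fell (mt-Nd2, mt-Cytb and mt-Nd4), 1 rose (mt-Co2) and 8 did not pass. By adjusted p the shares over all genes were 26.6% lower and 28.8% higher, so the count of lower mitochondrial members was near the background. mt-Nd2, a membrane subunit of complex I, was measured at 6943, 5287, 6547, 6681 and 6576 CPM in vehicle mice and at 3535, 2186, 2590, 2865 and 3041 CPM at 30 μg/kg. No treated mouse reached the lowest vehicle mouse. TCDD repressed mt-Nd2 2.25-fold (log2 fold change −1.17 ± 0.11 SE, adjusted p = 1.212e-11 by edgeR), with −0.42 at 3 μg/kg (adjusted p = 0.007614) and −0.68 at 10 μg/kg (adjusted p = 5.471e-06).

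mt-Cytb, the only mitochondrially encoded subunit of complex III, was measured at 12920, 9016, 10220, 11200 and 12690 CPM in vehicle and at 7109, 6467, 6805, 7046 and 6777 CPM at 30 μg/kg. Again the groups did not overlap. It fell 1.64-fold at 30 μg/kg (log2 fold change −0.71 ± 0.10 SE, adjusted p = 7.601e-08). mt-Nd4, a membrane subunit of complex I, was measured at 6934, 5414, 6434, 6625 and 6722 CPM in vehicle and at 4280, 3981, 4185, 4322 and 4289 CPM at 30 μg/kg, again without overlap, and fell 1.53-fold (adjusted p = 4.863e-07).

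Other mitochondrial mRNAs stayed closer to vehicle. mt-Nd1, a core membrane subunit of complex I, was measured at 6775, 5590, 6348, 6620 and 7365 CPM in vehicle and at 5575, 5358, 5957, 5443 and 5926 CPM at 30 μg/kg. The treated mice overlapped the lower vehicle mice and the log2 fold change of −0.21 did not pass (adjusted p = 0.1123). mt-Co1, the catalytic subunit of complex IV, was measured at 25570, 23510, 24250, 26840 and 31820 CPM in vehicle and at 20400, 21570, 24920, 28370 and 25970 CPM at 30 μg/kg, with a log2 fold change of −0.12 (adjusted p = 0.4532). mt-Nd5, a proton-pumping subunit of complex I, had a log2 fold change of −0.15 at 30 μg/kg (adjusted p = 0.248), after a fall of −0.38 at 10 μg/kg that passed (adjusted p = 0.009198). mt-Nd6, read from the opposite strand, had −0.12 (adjusted p = 0.6468).

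Ratios between these mRNAs within a library do not depend on its scaling. mt-Nd2 stood at 24.4% ± 2.83 of the CPM of mt-Co1 in vehicle, 16.5% ± 2.98 at 10 μg/kg and 11.9% ± 3.09 at 30 μg/kg (SD, n = 5 each), and the vehicle mice (20.7% to 27.1%) did not overlap those at 30 μg/kg (10.1% to 17.3%). Against mt-Nd1, mt-Nd2 went from 98.1% ± 5.97 to 50.3% ± 8.87. The ratio of mt-Cytb to mt-Co1 went from 42.5% ± 4.72 to 28.6% ± 3.97 and that of mt-Nd4 to mt-Co1 from 24.5% ± 2.48 to 17.6% ± 2.21. By contrast mt-Nd1 to mt-Co1 was 24.9% ± 1.46 in vehicle and 23.6% ± 2.99 at 30 μg/kg, and mt-Nd5 to mt-Co1 was 15.9% ± 1.05 and 15.7% ± 1.95. These ratios are of CPM, not per length. Those of mt-Nd2, mt-Cytb and mt-Nd4 set mRNAs called lower over mRNAs that did not pass. Their fall therefore repeats those calls and is no separate support.

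The 5 mitochondrial mRNAs with shared sequence were counted at low levels. mt-Co2 rose at 30 μg/kg by a log2 fold change of 0.66 (adjusted p = 0.004882), with treated mice at 12.64, 10.65, 21.13, 22.35 and 17.29 CPM, of which 2 lay within the range of the vehicle mice given above. mt-Co3 had 0.25, mt-Atp6 0.07, mt-Nd3 −0.25 and mt-Nd4l −0.47 at 30 μg/kg, none of which passed. Since the same letters occur in nuclear copies, these values describe uniquely placed reads and not the whole mRNA.

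**Figure D3:**
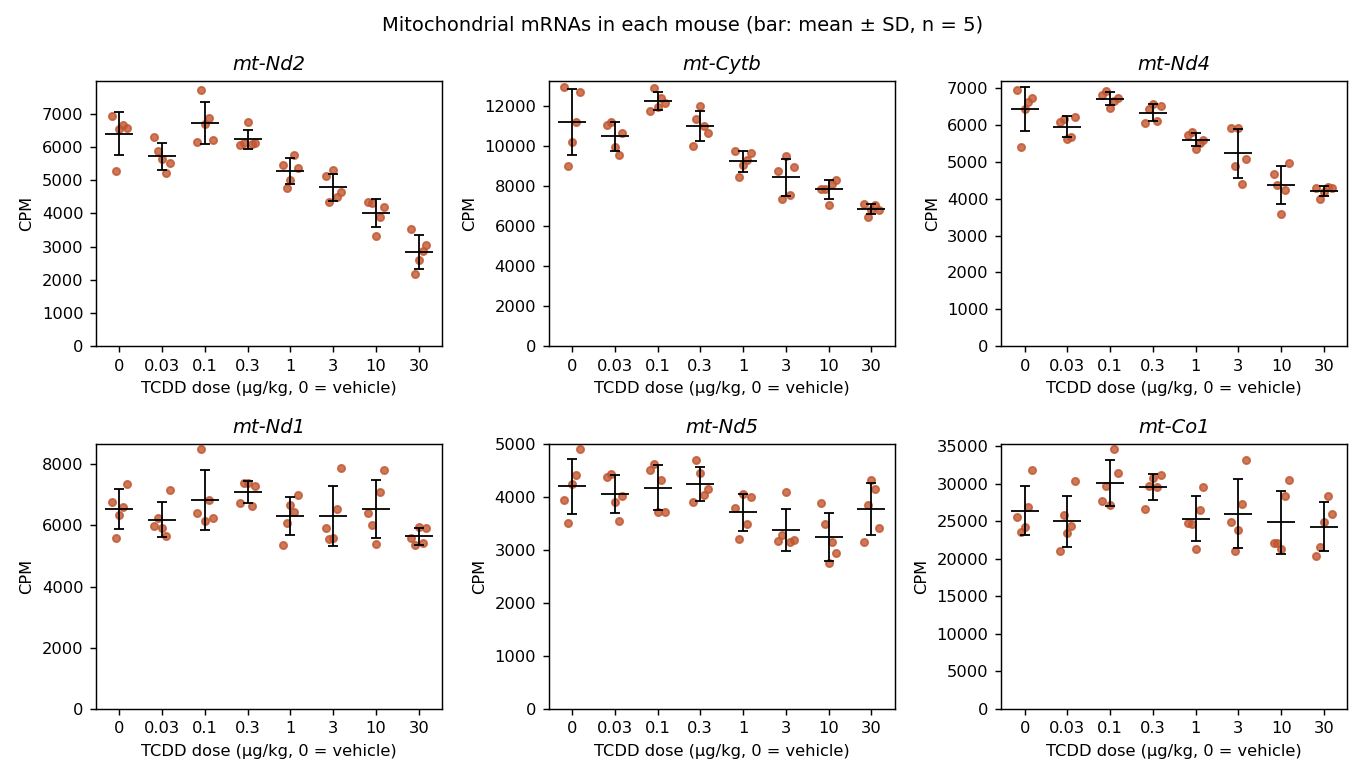
CPM per mouse at each dose in μg/kg for mt-Nd2, mt-Cytb, mt-Nd4, mt-Nd1, mt-Nd5 and mt-Co1. mt-Nd2, mt-Cytb and mt-Nd4 separate vehicle from 30 μg/kg without overlap, whereas mt-Nd1, mt-Nd5 and mt-Co1 overlap.

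Of the 37 nuclear members that fell at 30 μg/kg, 22 were among the 36 nuclear subunits of complex I, against 26.6% lower among all genes. Its nuclear core subunits hold the flavin and iron-sulfur centres, and its accessory subunits surround the core and stabilize it. Of the 29 accessory subunits, 20 fell at 30 μg/kg by adjusted p, 6 of them by at least 1.5-fold, and 0 rose. Over all genes 26.6% were lower by adjusted p and 18.9% with the fold threshold, so the 20 lay above the background and the 6 near it, without a test of either. All 29 had negative log2 fold changes with edgeR's scaling (−1.13 to −0.08, median −0.48), and 14 of them had negative values with total-count scaling. Of the 7 nuclear core subunits, 2 fell and 0 rose, with a median of −0.17. Along the dose steps, 22 accessory subunits and 2 core subunits fell, against 26.1% of all genes. The accessory count lay above that background and the core count near it, without a test of either.

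Ndufa2, an accessory subunit of the matrix arm, was measured at 58.81, 81.18, 93.92, 75.27 and 78.86 CPM in vehicle and at 38.84, 46.59, 30.81, 25.96 and 35.12 CPM at 30 μg/kg. All treated mice lay below all vehicle mice. It was repressed 2.19-fold (log2 fold change −1.13 ± 0.20 SE, adjusted p = 8.184e-06) and already fell at 10 μg/kg (−0.99, adjusted p = 0.0001494). Ndufb6, an accessory subunit of the membrane arm, was measured at 34.78, 36.95, 36.31, 33.44 and 39.97 CPM in vehicle and at 18.93, 20.63, 17.54, 15.05 and 20.41 CPM at 30 μg/kg. The groups were far apart, and Ndufb6 fell from 1 μg/kg on (−0.59, adjusted p = 0.003187) to −0.97 at 30 μg/kg (adjusted p = 2.608e-08).

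Ndufa5, another accessory subunit of the matrix arm, was measured at 63.93, 60.09, 60.32, 63.94 and 55.51 CPM in vehicle and at 37.72, 36.94, 30.32, 29.18 and 38.87 CPM at 30 μg/kg, without overlap. It fell at 1 μg/kg (−0.53, adjusted p = 0.01669) and at every higher dose, to −0.81 at 30 μg/kg (adjusted p = 3.35e-06). The other accessory subunits past both thresholds, named here after their values were seen, were Ndufs6 (−0.67), Ndufv3 (−0.65) and Ndufb9 (−0.59). At the other end, Ndufa10 (−0.08, adjusted p = 0.5872) and Ndufc1 (−0.08, adjusted p = 0.6289) did not pass.

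Among core subunits Ndufv2, which carries an iron-sulfur cluster next to the flavin subunit, was measured at 111.7, 106.4, 107.2, 109.8 and 122.5 CPM in vehicle and at 64.06, 79.58, 66.13, 82.29 and 70.41 CPM at 30 μg/kg. No treated mouse overlapped the vehicle mice. It fell from 1 μg/kg on (−0.53, adjusted p = 0.0001295), with −0.78 at 10 μg/kg and −0.62 at 30 μg/kg (adjusted p = 1.846e-07), so the value at the highest dose was no lower than at 10 μg/kg. Ndufs8, an iron-sulfur subunit, fell at 30 μg/kg (−0.33, adjusted p = 0.02254), but its sign turned with total-count scaling (0.16) and its call was lost without TCDD 30 μg/kg replicate 3 (−0.28) or without vehicle replicate 5 (−0.29). Ndufs3 (−0.19) and Ndufv1 (0.22), the flavin subunit, did not pass at 30 μg/kg.

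The 8 complex I assembly factors, which build the complex and are not part of it, went both ways, with 2 higher and 2 lower, each near the 28.8% and 26.6% of all genes. Ndufaf7 (0.34, adjusted p = 0.0124), a methyltransferase, and Ndufaf1 (0.27, adjusted p = 0.00946) rose at 30 μg/kg, whereas Ndufaf3 (−0.47, adjusted p = 0.01292) and Ndufaf2 (−0.39, adjusted p = 0.04163) fell with edgeR's scaling and had 0.01 and 0.09 with total-count scaling. All 4 calls were lost when some single library was left out: Ndufaf7 without vehicle replicate 4 (0.27), Ndufaf1 without TCDD 30 μg/kg replicate 4 (0.18), Ndufaf3 without TCDD 30 μg/kg replicate 3 (−0.38), and Ndufaf2 without TCDD 30 μg/kg replicate 3 or 4 or vehicle replicate 1, 3 or 4 (−0.38 to −0.29). Ndufaf6 had −0.26 (adjusted p = 0.05909). Ndufa4l2, a paralog of the complex IV subunit Ndufa4, was low (1.85 ± 0.39 CPM in vehicle) and had 0.05 at 30 μg/kg.

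Complex II changed unevenly. Sdha, its flavoprotein and catalytic subunit, was measured at 508.8, 591.9, 567.8, 571 and 558.5 CPM in vehicle and at 328.5, 313.4, 302.3, 340.5 and 323.7 CPM at 30 μg/kg. The groups were widely separated. TCDD repressed Sdha 1.74-fold (log2 fold change −0.80 ± 0.07 SE, adjusted p = 2.342e-12), after −0.22 at 3 μg/kg (adjusted p = 0.03235) and −0.57 at 10 μg/kg (adjusted p = 3.084e-08).

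Sdhb, the iron-sulfur subunit, was measured at 210.7, 222, 240.2, 251 and 260.5 CPM in vehicle and at 201.9, 212.6, 209, 231 and 189.5 CPM at 30 μg/kg, overlapping, with −0.18 (adjusted p = 0.1438). The membrane anchors Sdhd (−0.40, adjusted p = 0.0004025) and Sdhc (−0.30, adjusted p = 0.01087) fell with edgeR's scaling, and had 0.09 and 0.20 with total-count scaling. Sdha stood at 237% ± 19.4 of Sdhb in vehicle and at 155% ± 11.5 at 30 μg/kg, a ratio that no scaling alters and that did not overlap between these groups (214% to 267% and 145% to 171%). Since Sdha was called lower and Sdhb was not, the fall of the ratio repeats those calls.

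In complex III, 3 of the 8 nuclear members fell at 30 μg/kg (26.6% of all genes), 0 rose (28.8% of all genes) and 5 did not pass. Uqcrq, a small subunit that contacts cytochrome b, was measured at 335.5, 349.8, 427.5, 343.6 and 381 CPM in vehicle and at 198.2, 191, 133.1, 134.1 and 187.9 CPM at 30 μg/kg. All treated mice lay far below the vehicle mice. It fell 2.18-fold (log2 fold change −1.12 ± 0.16 SE, adjusted p = 1.16e-07), after −0.75 at 10 μg/kg (adjusted p = 0.0002162). Uqcrb (−0.54, adjusted p = 0.004796) fell too, as did Uqcrh (−0.44, adjusted p = 0.005028), although the latter had 0.05 with total-count scaling. Uqcrfs1, the Rieske iron-sulfur protein (0.21, adjusted p = 0.06522), and Uqcr10 (0.20, adjusted p = 0.183) did not pass. Uqcrq went from 94.5% ± 10.3 of Uqcrc1, a core protein of the complex, in vehicle to 68.9% ± 5.61 at 0.3 μg/kg and 43.0% ± 11.1 at 30 μg/kg, with mice at both doses below all vehicle mice. Uqcrc1 was not called at 30 μg/kg, so at that dose the ratio repeats the call of Uqcrq. At 0.3 μg/kg neither gene was called and the ratio was not tested. The share of all genes without overlap at that dose was not computed.

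Complex IV held the only member that rose at 3 and 10 μg/kg. Cox6a1, the subunit VIa isoform of liver and most other tissues, was measured at 378.9, 364.7, 427.7, 374.8 and 440.4 CPM in vehicle, at 684.6, 559.1, 513, 641.7 and 846.9 CPM at 10 μg/kg and at 658.1, 706.8, 571.7, 579.7 and 719.7 CPM at 30 μg/kg. Every mouse at either dose lay above every vehicle mouse. Cox6a1 was induced 1.63-fold at 30 μg/kg (log2 fold change 0.70 ± 0.13 SE, adjusted p = 1.369e-05), with 0.56 at 3 μg/kg (adjusted p = 0.003031) and 0.71 at 10 μg/kg (adjusted p = 3.883e-05). It was the single member whose 5 mice at 30 μg/kg all lay above the vehicle mice (19.7% of all genes), whereas 29 members had all of them below (17.9% of all genes). Relative to Cox4i1, the subunit IV of most tissues, Cox6a1 went from 126% ± 2.00 in vehicle to 158% ± 5.74 at 1 μg/kg, 211% ± 4.36 at 10 μg/kg and 175% ± 27.1 at 30 μg/kg.

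The other nuclear members of complex IV were lower or did not pass. Cox5b (−0.52, adjusted p = 0.02337), Cox7b (−0.49, adjusted p = 0.001074) and Cox6c fell at 30 μg/kg (26.6% of all genes), and 9 of 13 did not pass. The call of Cox5b was lost without TCDD 30 μg/kg replicate 3 or 4 or without vehicle replicate 3 (−0.46 in each case). Cox5a was measured at 79.25, 84.66, 84.92, 77.86 and 100.5 CPM in vehicle and at 79.75, 77.13, 64.07, 67.17 and 74.84 CPM at 30 μg/kg, with overlap, and its −0.23 did not pass (adjusted p = 0.08498). Cox4i1 had 0.25 (adjusted p = 0.1219).

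Cox7a1, the heart and muscle isoform of subunit VIIa, was near the lower end of detection at 1.642, 3.11, 1.489, 1.539 and 1.719 CPM in vehicle mice. The library of the second vehicle mouse also held transcripts of skeletal muscle that the other livers lacked or held at less, with Ckm at 34.8 CPM (at most 0.448 in the other 39), Myh1 at 90.4 CPM (at most 0.231), Acta1 at 146 CPM (at most 75) and the excluded muscle isoform Cox6a2 at 8.65 CPM (at most 0.357). Cox7a1 fell at 3 μg/kg (−1.59, adjusted p = 0.008556) and at 10 μg/kg (−1.16, adjusted p = 0.02335). Without that vehicle library the values were −1.34 (adjusted p = 0.04264) and −0.91 (adjusted p = 0.09657), so the call at 10 μg/kg was lost. At 30 μg/kg it had −0.48 (adjusted p = 0.2949).

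In ATP synthase 4 of 16 nuclear members fell, 1 rose and 11 did not pass at 30 μg/kg (median −0.25). The share that fell was near that of all genes (26.6%), and the share that rose was below it (28.8%). Atp5e, the epsilon subunit of the F1 part, was measured at 134.2, 171, 208.1, 162.6 and 166.2 CPM in vehicle and at 121.4, 117.7, 78.83, 81.06 and 112.6 CPM at 30 μg/kg, without overlap, and fell 1.65-fold (−0.72, adjusted p = 0.000517). Atp5j, coupling factor 6 of the stalk, was measured at 171.1, 153.8, 169.6, 174.4 and 157.6 CPM in vehicle and at 114.2, 111.4, 97.44, 92.34 and 96.09 CPM at 30 μg/kg, without overlap, and fell 1.62-fold (−0.69, adjusted p = 7.696e-08). These were the only members of the complex past both thresholds.

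The catalytic beta subunit Atp5b rose slightly (0.23, adjusted p = 0.04041), from 1392 ± 79.0 to 1637 ± 131 CPM (SD, n = 5 each). That call was lost in 8 of the fits that left out a library, among them those without vehicle replicate 1, 3 or 4 or TCDD 30 μg/kg replicate 2, 3, 4 or 5. Atp5f1, subunit b of the stalk, had 0.17 (adjusted p = 0.05867), and Atp5k had −0.47 (adjusted p = 0.1194). Atp5s, a coupling factor outside the complex and named here after its values were seen, was measured at 5.124, 5.163, 4.142, 4.757 and 3.152 CPM in vehicle and at 5.092, 8.445, 8.237, 6.947 and 6.198 CPM at 30 μg/kg. In 4 of the 5 treated mice it lay above all vehicle mice, and it rose by 0.64 (adjusted p = 0.0184).

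**Figure D4:**
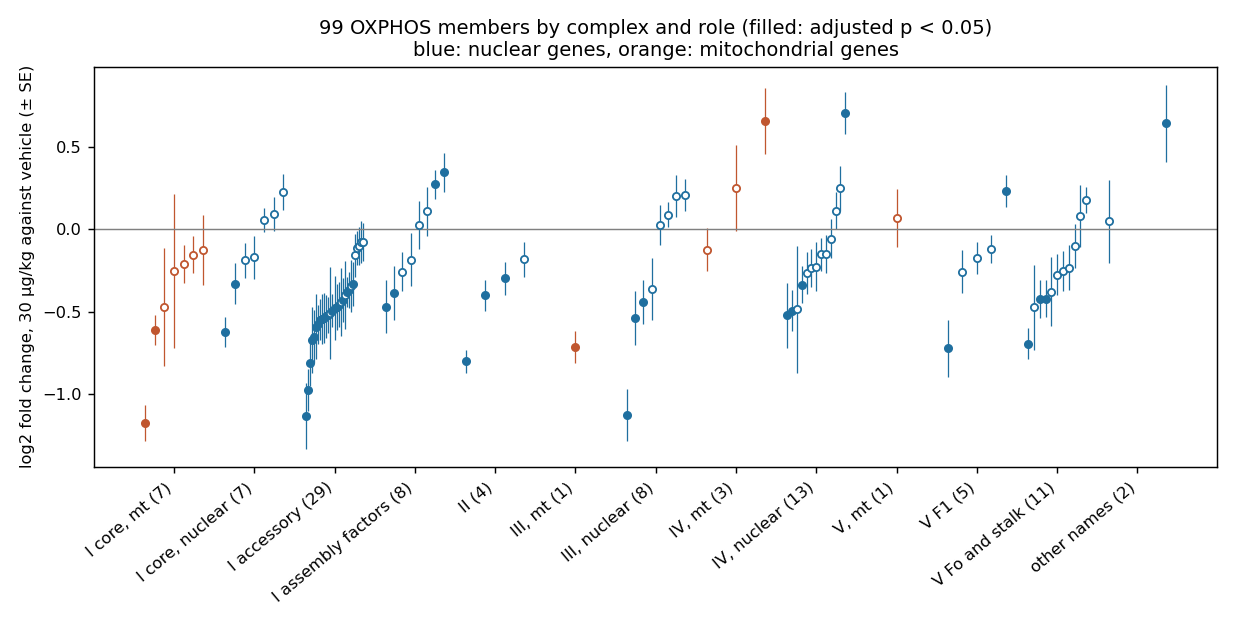
Log2 fold change at 30 μg/kg ± SE of all 99 members, grouped by complex and role, with nuclear members in blue and mitochondrially encoded members in orange and filled points for an adjusted p under 0.05. All 29 complex I accessory subunits lie below 0 with edgeR's scaling (14 with total-count scaling), Cox6a1 stands highest at 0.70 and mt-Nd2 lowest at −1.17.

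**Figure D5:**
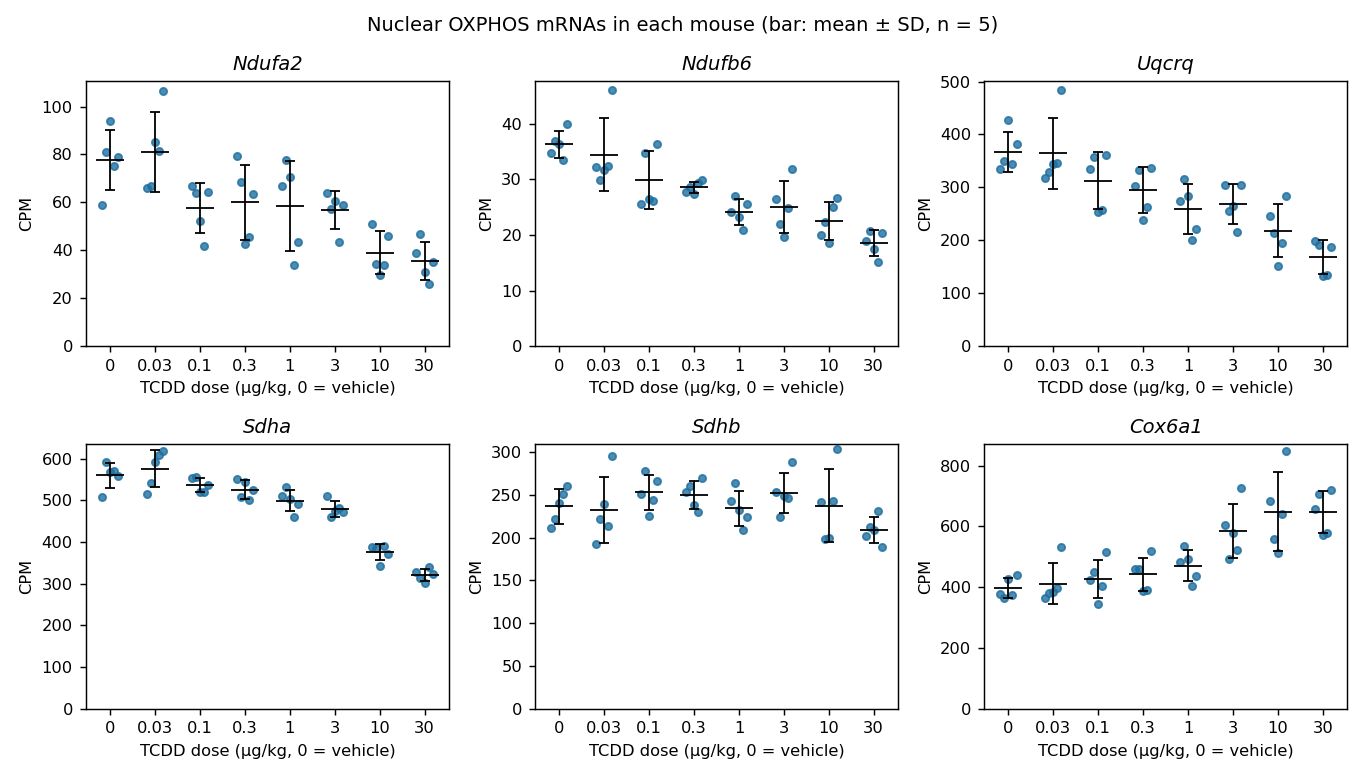
CPM per mouse at each dose in μg/kg for Ndufa2, Ndufb6, Uqcrq, Sdha, Sdhb and Cox6a1. Vehicle and 30 μg/kg mice overlap for Sdhb alone among the 6 genes, and Cox6a1 is the one that rises.

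The step from 10 to 30 μg/kg was compared without using the vehicle mice. Here 9 members were lower and 6 were higher at 30 μg/kg by adjusted p, against 16.9% and 14.9% of all genes, and with the fold threshold 0 were lower (10.6% of all genes) and 3 were higher (10.6% of all genes). mt-Nd2 was lower again (−0.50, adjusted p = 0.0004302), as were Sdha (−0.22, adjusted p = 0.01124) and Atp5j (−0.28, adjusted p = 0.01967). The 3 that rose by both rules were mt-Co2 (0.72), mt-Co3 (0.70) and Atp5s (0.64), and Cox6a1 had 0.00 (adjusted p = 0.9849). These counts were unstable. Scaling to total counts alone turned their direction, with 0 lower and 42 higher by adjusted p (9.22% and 32.3% of all genes), and title series and order as covariates gave 17 lower (19.6% of all genes). Leaving out single libraries gave 3 to 14 lower and 1 to 9 higher by adjusted p, with 3 to 5 lower without TCDD 10 μg/kg replicate 1 or 5 or TCDD 30 μg/kg replicate 3 or 4, 14 lower without TCDD 10 μg/kg replicate 3, and 1 to 3 higher without TCDD 10 μg/kg replicate 2 or 4 or TCDD 30 μg/kg replicate 2, 3 or 4. The 3 members past both rules became 0 without TCDD 30 μg/kg replicate 4 and 1 without TCDD 10 μg/kg replicate 2 or 5 or TCDD 30 μg/kg replicate 2 or 3, and the 0 lower members became 1 without TCDD 30 μg/kg replicate 1.

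The median shift was also read by gene length, taken as all annotated exon bases of a gene merged over its transcripts. This length can exceed that of any single mRNA of the gene. Nuclear members shorter than 1000 bases had a median log2 fold change of −0.44 at 30 μg/kg (19 genes), those of 1000 to 2000 bases −0.33 (35 genes) and longer ones −0.19 (33 genes). For all genes tested the same medians were −0.12, 0.00 and 0.04. The shares lower by adjusted p were 36.8%, 48.6% and 39.4% of the nuclear members in these bands. Among all genes tested they were 24.8%, 29.7% and 26.3%. As a description across genes, which share libraries and are not replicates, Spearman's correlation of length with log2 fold change was 0.22 over the 87 nuclear members and 0.05 over 15324 genes. The part of length in the results was not tested.

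Sample titles run in 2 series of numbers, with 3 vehicle mice and 2 mice at 30 μg/kg in the first and 2 and 3 in the second. Fitted within each series, the log2 fold changes at 30 μg/kg were −1.14 and −1.25 for mt-Nd2, −0.88 and −1.36 for Ndufa2, −0.94 and −1.28 for Uqcrq, −0.81 and −0.84 for Sdha, and 0.79 and 0.59 for Cox6a1. The count of members lower by both rules was 9 in the first series and 31 in the second, against 14.2% and 18.0% of all genes, so it lay below the background in the first and above it in the second. The count lower by adjusted p was 20 in the first and 36 in the second, against 18.1% and 20.1% of all genes. The difference between the series was not tested. With total-count scaling, 7 members remained lower by adjusted p at 30 μg/kg: mt-Nd2 (−0.69), Uqcrq (−0.64), Ndufa2 (−0.63), Ndufb6 (−0.48), Ndufa5 (−0.33), Sdha (−0.31) and mt-Cytb (−0.22).

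Genes around oxidative phosphorylation were taken from a list of 101 genes outside the symbol rule, of which 98 were tested. At 30 μg/kg 25 were higher and 18 lower by adjusted p, with a median log2 fold change of −0.01, against 28.8% higher and 26.6% lower among all genes. Neither share of the list exceeded the background. The 3 lowest were Suclg2 (−1.22, adjusted p = 2.491e-13), a succinyl-CoA ligase subunit of the tricarboxylic acid cycle, Polg2 (−1.07, adjusted p = 1.736e-06), the accessory subunit of the mitochondrial DNA polymerase, and Fmc1 (−0.999, adjusted p = 1.829e-05), an assembly factor of ATP synthase. The 3 highest were Ucp2, an inner membrane carrier that went from 25.1 ± 3.78 to 464 ± 118 CPM (4.21, adjusted p = 1.003e-18), Atpif1, the inhibitor of ATP synthase (1.28, adjusted p = 1.676e-06), and Slc25a4, the ADP/ATP carrier of muscle and heart (1.18, adjusted p = 0.01176). Slc25a4 stood at 32.5 CPM in the vehicle library with muscle transcripts and at 3.24 to 4.51 CPM in the other 4, and without that library its log2 fold change was 2.45 (adjusted p = 4.55e-09).

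Within this list, 4 of 14 tricarboxylic acid cycle genes were higher and 4 lower, each near the share over all genes (28.8% and 26.6%). Assembly factors of all complexes had 11 of 43 higher and 8 lower, and those of complex IV 6 of 21 higher and 2 lower, at or below the same shares. Of 76 mitochondrial ribosome genes tested, a separate list, 11 rose and 16 fell, both below these shares. Cytochrome c (Cycs), the carrier between complexes III and IV, fell by −1.01 at 10 μg/kg (adjusted p = 1.405e-08) and by −0.35 at 30 μg/kg (adjusted p = 0.01104), from 110 ± 7.56 CPM to 54.4 ± 5.86 and 86.3 ± 19.0 CPM. Cyc1, the cytochrome c1 subunit of complex III that the symbol rule misses, had −0.01 (adjusted p = 0.9546). Of the 7 regulators of mitochondrial biogenesis on the list, 2 fell, 1 rose and 4 did not pass. The transcription factor Yy1 (−0.55, adjusted p = 6.939e-08) and the nuclear receptor Esrra (−0.62, adjusted p = 6.226e-05) fell, and the coactivator Pprc1 rose (0.54, adjusted p = 0.03404). Those that did not pass were Ppargc1a (−0.73, adjusted p = 0.07639), Gabpa (−0.43, adjusted p = 0.1285), Nrf1 (−0.20, adjusted p = 0.2304) and Ppargc1b (0.17, adjusted p = 0.6301). Tfam, listed among the factors of mitochondrial DNA and RNA, fell slightly (−0.21, adjusted p = 0.04336). The values of both lists were computed with edgeR's scaling, and the falls of Tfam and of Cycs at 30 μg/kg are smaller, and that of Yy1 hardly larger, than the 0.52 by which total-count scaling moved the median of all genes.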

How the data were processed

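Total liver RNA of 40 mice was made into libraries with an NEB Ultra II kit, 1 per mouse, per the labels. The authors trimmed reads with Trimmomatic 0.39 after FastQC 0.11.7 and aligned them with STAR 2.7.3a, per the submitters' processing notes, which name GRCm39 and mm10 without a role. The authors deposited raw read counts per gene for each library (unstranded column used, 50.0% to 50.3% of stranded counts being on the first strand) and a table of normalized log2 values for the series, by a method the file does not state. Unmapped (2.47% to 11.3%), multimapping (5.24% to 7.43%) and other reads outside genes were left out of library sizes. Of the 55359 gene identifiers, 52083 were named through GENCODE M21. The annotation of the authors was not given in the sources used here, so genes carry no coordinates. Promoter windows are those of RefSeq on GRCm38.p6.

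Groups came from the labels. Replicates were numbered in accession order and pair no mice. Tests used edgeR 4.0.16 under R 4.3.3 (filterByExpr with a minimum count of 10 and a minimum total of 15, trimmed mean of M-values, a quasi-likelihood fit with 1 mean per dose over all 40 libraries), which took the place of the empirical Bayes test of the study. Each p-value was adjusted by the Benjamini-Hochberg method over 15373 genes within a comparison. A gene was called by an adjusted p under 0.05, with or without a fold change of at least 1.5. The trend was a slope on dose steps 0 to 7. CPM used the scaled library sizes and log2 CPM a prior count of 2. The fit was also run on simulated counts in which as many genes were raised as lowered. Without a shift in the bulk of genes, that run could not test the choice of scaling. SD describes the spread of mice and SE that of a fitted value. A p-value sets a fitted difference or slope against the spread between mice, estimated over all 40 libraries.

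Members and gene lists were chosen with earlier results of these data known. Named genes were the mitochondrial mRNAs, Cox5a, the Sdh genes, tissue isoforms, the 3 lowest and 2 highest nuclear members at 30 μg/kg of each complex or role, and the 3 lowest and 3 highest called genes of the pathway list, of which 1 gene is not reported here. Alternatives were DESeq2 1.42.0, limma 3.58.1 on the deposited log2 values, relative log expression size factors, total counts alone, scaling without mitochondrial genes, other filters, only the groups compared, the title series alone or as covariates (with the order within title triples) and leaving out each library. Added after seeing the data were the split of mitochondrial mRNAs by shared sequence and leaving out the title series 1 libraries at 30 μg/kg. The gene pairs of the ratios followed no rule set beforehand, and no ratio was tested.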

Additional observations from a re-analysis of the deposited data

Results flagged for a closer look

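Single mice stood apart from the other 4 of their group in 9 of 160 sets of 5 values examined, where the gap to the nearest mouse exceeded 0.71 of the range of the group. Chance alone flags about 1 set in 20. Among mitochondrial measures, the mean over the 12 mitochondrial members was 8.468 log2 CPM in TCDD 0.3 μg/kg replicate 2, the mean over the 7 mRNAs under the 90% limit on shared windows was 11.88 log2 CPM in TCDD 10 μg/kg replicate 3, mt-Nd2 was 5287 CPM in vehicle replicate 2, and the ratio of mt-Nd2 to mt-Co1 was 17.33% in TCDD 30 μg/kg replicate 1, above the other mice of its dose and still below all vehicle mice.

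Among nuclear members, Cox7a1 was 3.11 CPM in vehicle replicate 2, the library that also held skeletal muscle transcripts. Ndufa4l2 was 2.518 CPM in vehicle replicate 4, Ndufv1 was 148.8 CPM in vehicle replicate 1, and Uqcr10 was 143.4 CPM in vehicle replicate 3 and 178.4 CPM in TCDD 30 μg/kg replicate 2. None of Ndufa4l2, Ndufv1 and Uqcr10 passed the test at 30 μg/kg.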

How the results depend on the processing

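No paired analysis was possible because the labels number no replicates across groups and the numbers used here follow accession order. Scaling was the choice that moved most. With total counts alone, the log2 fold change at 30 μg/kg turned positive for Cox5a (0.26), Ndufa10 (0.42), Ndufaf2 (0.087), Ndufaf3 (0.007), Ndufc1 (0.41), Ndufs3 (0.31), Ndufs8 (0.16), Sdhb (0.32), Sdhc (0.20), Sdhd (0.0945), Uqcrh (0.0546), mt-Co1 (0.37), mt-Nd1 (0.28) and mt-Nd5 (0.35), and so did the mean differences of nuclear (0.21) and mitochondrial members (0.26). The same scaling gave, by adjusted p, 43 members higher and 7 lower at 30 μg/kg (53.1% and 13.1% of all genes). It gave 13 and 9 at 10 μg/kg (29.6% and 7.47%), 42 and 0 for 30 against 10 μg/kg (32.3% and 9.22%), and 38 and 11 for the trend (55.6% and 12.3%). With the fold threshold it gave 16 higher and 3 lower at 30 μg/kg, 1 lower at 10 μg/kg, and 9 higher for 30 against 10 μg/kg. Of 15373 genes in that fit, 6402 were higher and 1559 lower at 30 μg/kg with the threshold. At 10 μg/kg 756 were lower with it, and 3163 were higher for 30 against 10 μg/kg.

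Title series 1 alone gave 20 lower and 1 higher by adjusted p at 30 μg/kg (9 and 1 with the fold threshold), 9 lower at 10 μg/kg, 0 and 0 for 30 against 10 μg/kg (0 higher with the fold threshold), and a trend in 31 downward and 1 upward. Of 15814 genes in that fit, 2857 were lower and 2871 higher at 30 μg/kg (2247 and 2539 with the fold threshold). At 10 μg/kg 982 were lower. For 30 against 10 μg/kg 371 were lower and 154 higher (151 higher with the fold threshold). A trend passed downward in 2652 and upward in 3223. Title series 2 alone gave 31 lower with the fold threshold at 30 μg/kg, 2 higher by adjusted p and 1 with the fold threshold, 14 lower with it at 10 μg/kg, 5 lower with it for 30 against 10 μg/kg, and 3 trends upward. Of 16015 genes in that fit, 2884 were lower with the fold threshold at 30 μg/kg, 3286 higher by adjusted p and 3073 higher with the threshold. With it 1017 were lower at 10 μg/kg and 1668 for 30 against 10 μg/kg, and 4069 trends ran upward. Without the series 1 libraries at 30 μg/kg, an alternative added after seeing the data, 28 were lower with the fold threshold. The count over all genes was not kept for that fit. Series and order as covariates gave 49 lower at 10 μg/kg (17.1% of all genes) and 17 for 30 against 10 μg/kg (19.6% of all genes). The mean nuclear difference was −0.19 in series 1, −0.38 in series 2 and −0.22 with a filter at a mean of 50 counts. The nuclear minus mitochondrial difference turned positive with the 7 mRNAs under the 90% limit on shared windows (0.16, chosen after seeing the data) and in series 2 (0.046).

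For 30 against 10 μg/kg, no filter gave 3 higher and 2 lower by adjusted p, the 2 groups alone 3 and 1, limma 4 lower and the filter at a mean of 50 counts 5 lower. Over all genes these fits gave 1994 higher and 2272 lower of 32066, 1759 and 1658 of 14425, 2368 lower of 23120 and 2229 lower of 10791. The filter at a mean of 50 counts gave 8 trends upward (3390 of 10791 genes). With the fold threshold limma gave 1 higher at 30 μg/kg (3579 of 23120 genes). The cause of these changes was not tested.

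Leaving out each library gave 34 to 44 lower and 4 to 9 higher at 30 μg/kg (12 to 21 and 1 to 3 with the fold threshold), 15 to 32 lower and 1 to 2 higher at 10 μg/kg (6 to 12 lower and 1 higher with it), 3 to 14 lower and 1 to 9 higher for 30 against 10 μg/kg (0 to 1 and 0 to 3 with it), and 49 to 60 trends down and 3 to 6 up. These fits tested 15540 to 15757 genes. Of all genes 3909 to 4289 were lower and 4095 to 4584 higher at 30 μg/kg (2855 to 3197 and 3340 to 3764 with the threshold). At 10 μg/kg 1867 to 2346 were lower and 2408 to 2856 higher (1154 to 1319 and 1943 to 2173 with it). For 30 against 10 μg/kg 2204 to 3085 were lower and 1665 to 2719 higher (1423 to 2104 and 1215 to 2012 with it). Over all genes 3890 to 4135 trends ran down and 4528 to 5035 up. The mean difference ranged from −0.34 to −0.26 for nuclear and from −0.33 to −0.12 for mitochondrial members, and the nuclear minus mitochondrial difference from −0.16 to 0.03, being positive without TCDD 30 μg/kg replicate 3 (0.0021), vehicle replicate 2 (0.0306) or vehicle replicate 3 (0.0081). For the 48 named members, 502 of the other results kept direction and call, 21 gained and 35 lost the call and 14 turned, and leaving out a library kept 1890, gained 9 and lost 21. Depth limits mainly mt-Nd3, mt-Nd4l, Cox7a1 and Ndufa4l2, with under 2 CPM on average in vehicle.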

Other observations

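The ratio of Cox6a1 to Cox4i1 in the same library varied little between mice. It lay between 123% and 128% in the 5 vehicle mice, between 149% and 163% at 1 μg/kg, between 171% and 197% at 3 μg/kg and between 208% and 219% at 10 μg/kg, without overlap between these 4 of the 8 groups. The other groups were less distinct. The ratio lay between 124% and 136% at 0.03 μg/kg, overlapping the vehicle mice, between 129% and 146% at 0.1 μg/kg and between 128% and 138% at 0.3 μg/kg, and these 3 doses overlapped one another. At 30 μg/kg it lay between 160% and 223%, overlapping the mice at 1, 3 and 10 μg/kg. Cox6a1 alone passed the test from 3 μg/kg on and not at 1 μg/kg (log2 fold change 0.24, adjusted p = 0.372 by edgeR). The ratio was chosen after its values were seen and no test was made of it.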
